A study of Mus musculus with 12 samples.

Results

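Bmp5, Ccbe1, Cryz, Fam229b, Haghl, Nrep and Tlcd2 were 7 mouse genes whose transcripts were lower in pregnant than in virgin mice in both lung and liver. They were chosen by those 2 pregnancy contrasts, from the 12 of 18193 genes that passed the test as lower in both tissues, so the pregnancy values below describe the choice and are no evidence for it. The 7 genes had 17 probe sets, the groups of short probes that give 1 value each, of 45037 on the array once controls were left out. Virgin females were compared with females at gestation day 16 in NOD/SCID, a mouse strain that has no mature T or B cells, and both organs were taken. All mice were 8 to 10 weeks old when the experiments began, and the labels name no treatment. Each of the 4 groups (virgin lung, pregnant lung, virgin liver, pregnant liver) had 3 arrays, and each array carried RNA pooled from 2 mice. The tissues were ground whole, so fewer cells of a type and less RNA per cell cannot be told apart in any value given here.

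The 7 genes act in several unrelated processes. Bmp5 encodes a secreted bone morphogenetic protein (BMP), a ligand that binds serine/threonine kinase receptors and signals through Smad1, Smad5 and Smad9, and Ccbe1 encodes a secreted protein that helps the protease Adamts3 to activate VEGF-C, the growth factor of lymphatic vessels. Nrep (also called P311) encodes a small intracellular protein known for raising the translation of TGF-beta, Cryz a quinone oxidoreductase that uses NADPH, Haghl a relative of the glyoxalase enzyme Hagh, and Tlcd2 a membrane protein with a TLC domain, the fold shared with ceramide synthases. The function of the Fam229b protein is little described. In pregnancy the liver grows and changes its metabolism, and the lung meets a larger blood flow and oxygen demand.

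To show the DNA in front of these genes, the 250 bases before the annotated start site were taken from RefSeq promoters of mouse build GRCm38.p6 for the 5 genes that matched by symbol, all but Ccbe1 and Nrep. Cryz had 2 promoter entries, Fam229b 3 and Haghl 3. For each of these genes only the entry at the annotated 5′ end of the gene was used, so the matches below describe that window alone. The Bmp5 window lies at chr9:75775115-75775364 on the plus strand, that of Cryz at chr3:154596461-154596710 on the plus strand and that of Fam229b at chr10:39133915-39134164 on the minus strand. The Haghl window lies at chr17:25785587-25785836 on the minus strand and that of Tlcd2 at chr11:75467800-75468049 on the plus strand, where the start site used lies 26 bases from the annotated 5′ end of the gene. All are written 5′ to 3′ on the strand of the gene, and capitals mark the matches, on either strand, to the 7 motifs named in the next paragraph.
Bmp5: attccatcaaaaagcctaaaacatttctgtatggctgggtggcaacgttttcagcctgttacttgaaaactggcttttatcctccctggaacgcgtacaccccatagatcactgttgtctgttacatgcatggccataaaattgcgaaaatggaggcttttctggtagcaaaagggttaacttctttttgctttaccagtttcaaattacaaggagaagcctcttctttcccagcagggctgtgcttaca
Cryz: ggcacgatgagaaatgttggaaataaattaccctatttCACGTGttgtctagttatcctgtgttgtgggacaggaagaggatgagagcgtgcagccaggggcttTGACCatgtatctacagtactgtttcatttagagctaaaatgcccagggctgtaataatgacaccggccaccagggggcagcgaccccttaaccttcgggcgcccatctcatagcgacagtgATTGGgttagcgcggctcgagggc
Fam229b: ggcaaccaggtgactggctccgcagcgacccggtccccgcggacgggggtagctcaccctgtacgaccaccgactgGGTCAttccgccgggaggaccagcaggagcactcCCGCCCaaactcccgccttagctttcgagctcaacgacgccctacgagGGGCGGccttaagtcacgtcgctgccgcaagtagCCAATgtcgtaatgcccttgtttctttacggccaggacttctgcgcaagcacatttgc
Haghl: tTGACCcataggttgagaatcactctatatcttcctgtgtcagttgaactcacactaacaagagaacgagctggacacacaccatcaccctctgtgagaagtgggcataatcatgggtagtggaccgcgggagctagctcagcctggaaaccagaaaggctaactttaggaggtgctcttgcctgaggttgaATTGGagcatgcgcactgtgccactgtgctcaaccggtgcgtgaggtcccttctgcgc
Tlcd2: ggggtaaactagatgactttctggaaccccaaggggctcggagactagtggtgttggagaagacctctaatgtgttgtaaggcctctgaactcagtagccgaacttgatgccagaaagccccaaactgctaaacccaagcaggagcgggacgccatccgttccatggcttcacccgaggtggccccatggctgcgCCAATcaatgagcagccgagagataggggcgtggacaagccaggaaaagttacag

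The 5 windows differed in composition. Their GC content was 42.8% for Bmp5, 51.6% for Cryz, 63.2% for Fam229b, 52.4% for Haghl and 55.2% for Tlcd2, against a median of 52.4% over 32851 promoter windows of the same length. Fam229b had 23 CpG sites, Cryz 11, Tlcd2 9, Haghl 7 and Bmp5 4, against a median of 6. The CCAAT box (CCAAT) was present in 4 of the 5 windows and in 33.8% of all promoters, and it began 24 bases before the start in Cryz, 58 in Fam229b, 58 in Haghl and 55 in Tlcd2. The estrogen receptor core motif (GGTCA) was present in 3 of the 5, Cryz, Fam229b and Haghl, and in 35.2% of all promoters. The GC box (GGGCGG) occurred in Fam229b alone, at 2 places, and in 32.7% of all promoters, and the E-box (CACGTG) in Cryz alone and in 6.0% of all. The TATA box (TATAAA, 12.4% of all promoters), the STAT motif (TTCNNNGAA, 7.0%) and the steroid receptor core motif (AGAACA, 16.1%) had 0 matches in the 5 windows, which says only that these letters are not in these windows. Both strands were searched and no match overlapped another, and Bmp5 had no match to any of the 7 motifs.

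Expression was read as deposited log2 values, on which a difference of 1 is a 2-fold change. The array medians lay between 4.491 and 4.555, and the median level over all probe sets, 4.6, is used below as a mark of low signal. Arrays of 1 group correlated at 0.9917 to 0.9961 and arrays of different tissues at 0.8403 to 0.8528. The hepatocyte marker list averaged 13.4 to 13.6 in liver and 4.31 to 4.71 in lung, and the list for alveolar type 2 and club cells averaged 12.9 to 13.1 in lung and 5.48 to 5.62 in liver. Both liver arrays of pool 3 had almost no signal of the poly-A control RNA (means of 4.947 and 5.326, against 11.84 to 12.34 on the other 10 arrays), so liver changes are also given within pools 1 and 2 and within pool 3. A gene with several probe sets was represented by the brightest of them, and a gene was called where limma's adjusted p was under 0.05. The number of arrays limits the precision, and p-values measure the spread between these pools, part of which may be technical.

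Each of the 7 genes was called lower in pregnant lung, where 0.335% of all genes were called lower, and in pregnant liver, where 7.62% were. Genes called lower in both made up 0.066% of those tested, and nothing is read from these shares because the rule used both contrasts. In all 7 genes every pregnant array lay below every virgin array of its tissue, a pattern that 2.32% of all genes showed. The pregnant level was 1.44-fold to 1.63-fold below the virgin level in lung and 1.23-fold to 2.30-fold below it in liver. No gene was at least 2-fold lower in lung (0 of 7), and Nrep and Tlcd2 were in liver (2 of 7). The change was larger in lung for 4 genes (Bmp5, Ccbe1, Cryz, Haghl) and in liver for 3 (Fam229b, Nrep, Tlcd2). These differences were not tested, and they are given below with their SE.

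**Figure D1:**
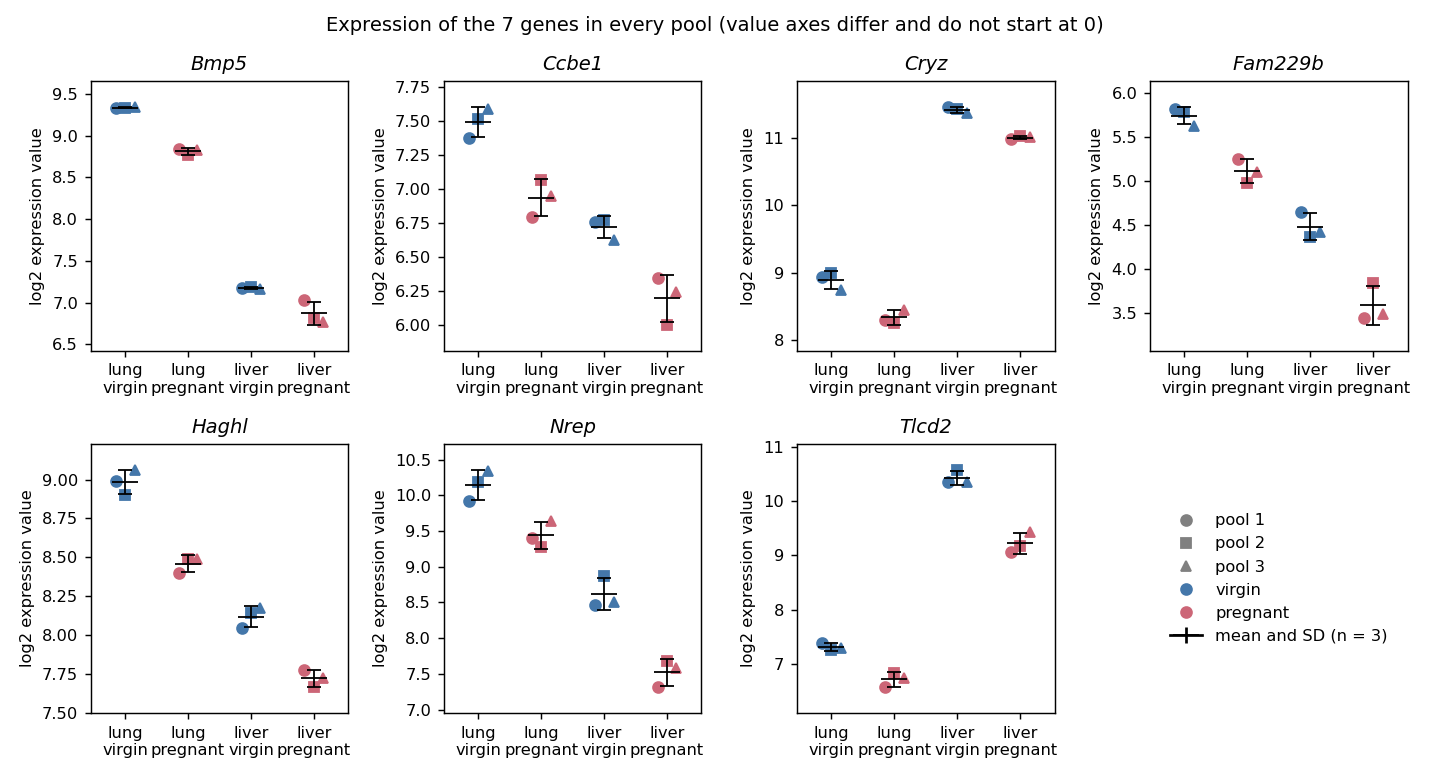
Deposited log2 expression values of the brightest probe set of each of the 7 genes, with 1 point per pool, in virgin (blue) and pregnant (red) lung and liver. Lines give the mean and SD of 3 pools; the value axes differ between genes and do not start at 0. In each panel the 3 pregnant pools lie below the 3 virgin pools of the same tissue, and Cryz and Tlcd2 alone have their higher levels in liver.

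Bmp5, the BMP ligand, was read most tightly of the 7 in virgin mice. The virgin lung pools read 9.33, 9.33 and 9.34 and the pregnant lung pools 8.84, 8.77 and 8.83 on the log2 scale. The virgin liver pools read 7.17, 7.18 and 7.16 and the pregnant liver pools 7.03, 6.82 and 6.77. The groups did not overlap in either tissue, and pool 1 of pregnant liver stood nearest to the virgin pools. The lung mean was 9.33 ± 0.0072 in virgin and 8.81 ± 0.039 in pregnant mice (SD, n = 3), a log2 change of -0.52 ± 0.086 (SE) that left 69.6% of the virgin level. The liver change was -0.30 ± 0.086 and left 81.3%, with -0.25 within pools 1 and 2 and -0.39 within pool 3. It was the smallest liver change of the 7 genes.

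The 2 further Bmp5 probe sets were each lower without overlap in 1 tissue alone. Probe set 1421283_at read 7.05, 6.88 and 6.75 in virgin and 7.01, 6.71 and 6.50 in pregnant lung, so its lung groups overlapped at a change of -0.16 ± 0.14. In liver it read 5.21, 5.23 and 5.44 in virgin and 5.19, 4.81 and 4.94 in pregnant pools, a change of -0.31 ± 0.14 without overlap. Probe set 1421282_at did the opposite, with a lung change of -0.49 ± 0.13 without overlap (6.08, 6.29 and 6.30 in virgin, 5.77, 5.54 and 5.89 in pregnant pools). Its liver values, all below the 4.6 level, overlapped at a change of 0.04 ± 0.13. With the mean of the Bmp5 probe sets in place of the brightest, the liver change was -0.19.

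Among the other 44 BMP pathway genes measured, 2 rose and 0 fell in pregnant lung, and 4 rose and 8 fell in pregnant liver. The lists of pathway genes leave out the 7 genes. Over all 6 lists described here, 2 of 115 genes (1.74%) passed in lung in either direction, where 0.594% of all genes did, and 29 of 115 (25.2%) passed in liver, where 13.6% did. The median change of the BMP list was 0.0045 in lung and -0.083 in liver, beside -0.0084 and -0.0083 over all genes. Of 9 other BMP ligands, 0 passed in lung and Bmp6 alone fell in liver. Bmp6, the ligand that drives hepcidin, read 5.66, 5.82 and 5.98 in virgin and 4.61, 4.97 and 5.02 in pregnant liver, a change of -0.95 ± 0.13 (adjusted p = 0.000252). In lung Bmp6 read 9.53, 9.29 and 9.64 and then 9.79, 9.53 and 9.74, which differed by 0.20 ± 0.13 and missed the threshold (adjusted p = 0.715). Bmp7, a close relative of Bmp5, passed in neither tissue, with differences of -0.05 ± 0.087 in lung and 0.11 ± 0.087 in liver.

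Receptors, transducers, inhibitors and targets of the pathway did not move one way. Of 8 receptors, Eng, the endothelial co-receptor endoglin, rose in lung from 10.04, 9.81 and 9.82 to 10.45, 10.36 and 10.36, by 0.50 ± 0.095 (adjusted p = 0.0349), and 1 receptor fell in liver. Of 4 Smad transducers, 0 passed in lung and 1 fell in liver. Of 15 inhibitors, 1 rose in lung, and 3 rose and 3 fell in liver. Smad6, an inhibitory Smad, was the inhibitor that rose in lung, from 10.61, 10.77 and 10.94 to 11.30, 11.38 and 11.45, by 0.60 ± 0.11 (adjusted p = 0.0338), and it also rose in liver, by 0.88 ± 0.11 (adjusted p = 0.000125). Smad7, another inhibitory Smad, fell in liver, a change of -0.85 ± 0.15 (adjusted p = 0.00144). In lung Smad7 differed by 0.53 ± 0.15 and missed the threshold (adjusted p = 0.162). Of 8 targets, 0 passed in lung, and 1 rose and 2 fell in liver. Id1, a direct transcriptional target, rose in liver from 7.54, 8.11 and 7.66 to 8.89, 8.93 and 9.33, by 1.28 ± 0.16 (adjusted p = 0.000131), with 1.08 within pools 1 and 2 and 1.67 within pool 3. Hamp, which encodes the iron hormone hepcidin, fell in liver from 13.81, 13.68 and 13.88 to 12.27, 12.51 and 12.72, a change of -1.29 ± 0.31 (adjusted p = 0.0133). The lung calls of Smad6 and Eng were lost without lung pregnant replicate 1 (adjusted p = 0.0694 and 0.129), lung pregnant replicate 2 (0.0956 and 0.0909), lung pregnant replicate 3 (0.0807 and 0.0617) or lung virgin replicate 2 (0.123 and 0.154). That of Smad6 was also lost without lung virgin replicate 1 (0.104) or liver virgin replicate 3 (0.0505), that of Eng without lung virgin replicate 3 (0.146), and the liver call of Hamp without liver pregnant replicate 1 (0.0502).

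Ccbe1, the VEGF-C activation factor, had virgin lung values of 7.37, 7.51 and 7.59 and pregnant lung values of 6.80, 7.07 and 6.95. Its virgin liver values were 6.76, 6.77 and 6.62 and its pregnant liver values 6.34, 6.001 and 6.24. No groups overlapped within a tissue, and the lowest pregnant pool was pool 1 in lung and pool 2 in liver. The lung change was -0.56 ± 0.11, leaving 68% of the virgin level, and the liver change was -0.52 ± 0.11, leaving 69.6%. Within pools 1 and 2 the liver change was -0.59 and within pool 3 it was -0.38. The 2 changes were the closest of any of the 7 genes, with a lung change minus liver change of -0.03 ± 0.15.

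The other 3 Ccbe1 probe sets stayed below the 4.6 level in every group. Probe set 1439327_at read 4.00, 4.28 and 4.34 in virgin and 3.57, 3.97 and 3.53 in pregnant lung, lower without overlap, and its liver groups overlapped at a change of 0.09 ± 0.17. The lung changes of 1445127_at and 1453918_at were -0.03 ± 0.15 and -0.08 ± 0.11. Their liver changes were 0.01 ± 0.15 and 0.01 ± 0.11, and their groups overlapped in both tissues. The lower Ccbe1 level in liver therefore rested on 1 of 4 probe sets. The mean of the 4 gave a Ccbe1 change of -0.30 in lung and -0.10 in liver.

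Of 12 genes of VEGF-C processing and signalling, 0 passed in lung, and 0 rose and 2 fell in liver. The list's median change was -0.10 in lung and -0.058 in liver. Both genes that fell in liver were receptors. Nrp2, a co-receptor for VEGF-C, read 7.13, 7.14 and 6.77 in virgin and 6.59, 6.53 and 6.58 in pregnant liver, a change of -0.45 ± 0.11 (adjusted p = 0.0155), where pools 1 and 2 gave -0.58 and pool 3 gave -0.18. Kdr, the main VEGF receptor of blood vessels, read 8.25, 8.22 and 8.41 and then 7.99, 7.90 and 8.10, a change of -0.30 ± 0.092 (adjusted p = 0.0475). The call of Nrp2 was lost without liver virgin replicate 1 (adjusted p = 0.0649) or liver virgin replicate 2 (0.0675), and with the mean of its probe sets, which changed by -0.09. That of Kdr was lost without any 1 of 10 arrays, at an adjusted p of up to 0.15, and kept without lung virgin replicate 3 or liver pregnant replicate 3. In lung the smallest p-values belonged to Sox18, a transcription factor of vessel development, at 0.42 ± 0.10 (adjusted p = 0.0978), and Itga9, an integrin, at -0.21 ± 0.098 (adjusted p = 0.502). The VEGF-C gene itself, Vegfc, differed by -0.18 ± 0.14 in lung and 0.11 ± 0.14 in liver, and the protease gene Adamts3, below the 4.6 level in both tissues, by -0.01 ± 0.16 and -0.21 ± 0.16, none of which passed.

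Nrep, the regulator of TGF-beta translation, had the largest lung change of the 7 genes. Virgin lung pools read 9.93, 10.18 and 10.34 and pregnant lung pools 9.41, 9.27 and 9.64. Virgin liver pools read 8.46, 8.88 and 8.51 and pregnant liver pools 7.31, 7.67 and 7.58. The groups did not overlap, but they were the most spread of the 7 genes in lung, with means of 10.15 ± 0.21 and 9.44 ± 0.19 (SD, n = 3). The changes of -0.71 ± 0.15 in lung and -1.09 ± 0.15 in liver left 61.2% and 46.9% of the virgin level. Within pools 1 and 2 of liver the change was -1.18 and within pool 3 it was -0.92. The second Nrep probe set, 1436736_x_at, read 9.55, 9.84 and 9.70 in virgin and 9.22, 8.95 and 9.28 in pregnant lung, a change of -0.55 ± 0.18. In liver it read 8.09, 8.44 and 7.78 and 6.75, 7.38 and 7.02, a change of -1.05 ± 0.18, again without overlap in either tissue. The suffix x marks a probe set that can bind more than 1 transcript.

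The TGF-beta genes themselves did not pass in either tissue. Tgfb1 differed by 0.11 ± 0.13 in lung and -0.02 ± 0.13 in liver, Tgfb2 by -0.24 ± 0.21 and 0.17 ± 0.21, and Tgfb3 by -0.13 ± 0.15 and -0.07 ± 0.15. Of 20 genes of TGF-beta signalling and matrix, 0 passed in lung (median change 0.041), and 1 rose and 1 fell in liver (median -0.046). Both were receptors. Tgfbr2, the type II receptor, rose from 8.36, 8.16 and 8.11 in virgin to 9.01, 8.68 and 8.96 in pregnant liver, by 0.67 ± 0.11 (adjusted p = 0.000645). Tgfbr3, the co-receptor betaglycan, fell from 8.85, 8.76 and 8.88 to 8.23, 8.32 and 8.22, a change of -0.57 ± 0.090 (adjusted p = 0.000663). Both calls were lost where the mean of all probe sets stood for a gene, with changes of 0.14 for Tgfbr2 and -0.27 for Tgfbr3. In lung the smallest p-values were those of Col1a2, a type I collagen chain, at -0.46 ± 0.13 (adjusted p = 0.179), and Ltbp4, which binds latent TGF-beta, at -0.34 ± 0.14 (adjusted p = 0.404).

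Cryz, the quinone oxidoreductase, had 2 probe sets that behaved alike. Virgin lung read 8.94, 9.001 and 8.74 and pregnant lung 8.30, 8.25 and 8.45. Virgin liver read 11.46, 11.43 and 11.38 and pregnant liver 10.98, 11.03 and 11.02, where the 3 pregnant pools lay close together and apart from the virgin ones. The lung change was -0.56 ± 0.092, leaving 67.7% of the virgin level, and the liver change -0.41 ± 0.092, leaving 75.1%. Pools 1 and 2 of liver gave -0.44 and pool 3 gave -0.36. Probe set 1451848_a_at read 7.48, 7.48 and 7.38 in virgin and 6.90, 6.98 and 6.97 in pregnant lung. In liver it read 9.94, 10.06 and 9.97 and 9.42, 9.46 and 9.61. Its changes were -0.50 ± 0.092 and -0.49 ± 0.092, again without overlap.

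Of 14 quinone reductases and related genes, 0 passed in lung, and 1 rose and 3 fell in liver. The list's median change was -0.060 in lung and -0.23 in liver. All 3 genes that fell in liver were quinone or carbonyl reductases. Blvrb, biliverdin reductase B, fell from 9.98, 10.20 and 10.02 to 9.33, 9.21 and 9.42, a change of -0.74 ± 0.095 (adjusted p = 0.00013). Cbr1, carbonyl reductase, fell from 10.09, 10.31 and 9.83 to 9.51, 9.50 and 9.33, a change of -0.63 ± 0.12 (adjusted p = 0.00277). Nqo2, which reduces quinones like its relative Nqo1, fell from 9.33, 9.48 and 9.40 to 8.83, 8.82 and 8.91, a change of -0.55 ± 0.083 (adjusted p = 0.000509). In lung Nqo1 and Nqo2 had the smallest p-values of the list, with differences of -0.37 ± 0.14 (adjusted p = 0.319) and -0.21 ± 0.083 (adjusted p = 0.391). Cryzl1, 1 of the 2 genes named for their likeness to Cryz, differed by -0.04 ± 0.093 in lung (adjusted p = 0.951) and 0.03 ± 0.093 in liver (adjusted p = 0.862). The other, Cryzl2, was the gene of the list that rose in liver, from 7.98, 8.13 and 8.07 to 8.28, 8.44 and 8.66, by 0.40 ± 0.10 (adjusted p = 0.018) without overlap, and in lung it differed by -0.02 ± 0.10 (adjusted p = 0.982). Its liver call was lost with the mean of all probe sets (a change of 0.14), without both liver pools 3 (0.30), and without liver virgin replicate 1 (0.36) or liver pregnant replicate 3 (0.30).

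Haghl, the glyoxalase II relative, read 8.99, 8.90 and 9.06 in virgin and 8.40, 8.49 and 8.49 in pregnant lung. In liver the virgin pools read 8.04, 8.14 and 8.17 and the pregnant pools 7.78, 7.67 and 7.73. The groups did not overlap, and the pools of each group lay close together. The changes were -0.52 ± 0.083 in lung and -0.40 ± 0.083 in liver, leaving 69.6% and 76% of the virgin level, with a liver difference of -0.37 in pools 1 and 2 and -0.44 in pool 3. Probe sets 1429958_x_at and 1428630_x_at were also lower without overlap, with changes of -0.63 ± 0.100 and -0.46 ± 0.095 in lung and -0.37 ± 0.100 and -0.32 ± 0.095 in liver. Their suffix marks probes that can bind more than 1 transcript. With the mean of the Haghl probe sets the liver change was -0.19.

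The remaining Haghl probe set, 1433650_at, went the other way in liver. It read 4.87, 4.69 and 4.68 in virgin and 5.06, 5.18 and 5.04 in pregnant liver, every pregnant pool above every virgin pool, with a change of 0.35 ± 0.094. Pools 1 and 2 gave 0.34 and pool 3 gave 0.36. In lung it read 4.52, 4.57 and 4.64 and 4.59, 4.55 and 4.49, which overlapped near the 4.6 level at a change of -0.03 ± 0.094. It was the only 1 of the 17 probe sets whose pregnant pools all lay above its virgin pools in a tissue.

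Of 11 genes of the glyoxalase system and the metallo-beta-lactamase fold, the fold of glyoxalase II, 0 passed in lung, and 0 rose and 5 fell in liver. The list's median change was -0.095 in lung and -0.23 in liver. Ethe1, a mitochondrial sulfur dioxygenase with this fold, fell from 9.48, 9.64 and 9.60 to 8.48, 8.63 and 8.95, a change of -0.88 ± 0.12 (adjusted p = 0.000189), with -1.005 within pools 1 and 2 and -0.64 within pool 3. Lactb2, a mitochondrial nuclease with this fold, fell from 10.09, 10.04 and 10.00 to 9.13, 9.19 and 9.31, a change of -0.83 ± 0.095 (adjusted p = 4.81e-05). Ldhd, D-lactate dehydrogenase, which oxidises the end product of the glyoxalases, fell from 9.19, 9.22 and 9.21 to 8.18, 8.78 and 8.60, a change of -0.69 ± 0.14 (adjusted p = 0.0047). Hagh, glyoxalase II itself, differed by -0.13 ± 0.083 in lung (adjusted p = 0.676) and -0.23 ± 0.083 in liver (adjusted p = 0.0925) and passed in neither. In lung Lactb2 differed by -0.27 ± 0.095 (adjusted p = 0.301) and Glod4, a glyoxalase domain gene, by -0.21 ± 0.082 (adjusted p = 0.346).

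Tlcd2, the TLC domain gene, had the largest liver change of the 7. Its virgin lung pools read 7.39, 7.25 and 7.30 and its pregnant lung pools 6.57, 6.83 and 6.75. Its virgin liver pools read 10.35, 10.57 and 10.34 and its pregnant liver pools 9.05, 9.17 and 9.44. The groups did not overlap in either tissue, and they lay farther apart in liver. The changes were -0.59 ± 0.11 in lung and -1.20 ± 0.11 in liver, leaving 66.2% and 43.5% of the virgin level. Within liver the change was -1.35 in pools 1 and 2 and -0.91 in pool 3. The lung change minus the liver change was 0.61 ± 0.16, the largest such difference of the 7 genes. Tlcd2 had 1 probe set.

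Of 14 other TLC domain genes, 0 passed in lung, and 1 rose and 3 fell in liver. The list's median change was -0.032 in lung and -0.041 in liver. Tlcd1, the nearest relative of Tlcd2, fell from 9.13, 9.23 and 9.17 in virgin to 7.73, 7.78 and 8.04 in pregnant liver, a change of -1.32 ± 0.11 (adjusted p = 1.62e-06), and the mean of its probe sets fell by 0.60. In lung Tlcd1 read 6.91, 6.84 and 6.68 and 6.42, 6.68 and 6.47, where 1 virgin and 1 pregnant pool met, and the difference of -0.28 ± 0.11 missed the threshold (adjusted p = 0.343). The ceramide synthase genes moved both ways in liver. Cers6, which makes ceramides with shorter acyl chains, rose from 6.73, 6.42 and 6.47 to 7.72, 7.77 and 7.57, by 1.14 ± 0.11 (adjusted p = 7.43e-06). Cers2, which makes those with very long chains, fell from 10.23, 10.31 and 10.23 to 9.76, 9.86 and 9.82, a change of -0.44 ± 0.089 (adjusted p = 0.00426). Tram1, a translocon-associated gene, had the other of the 2 smallest p-values in lung, at -0.19 ± 0.079 (adjusted p = 0.406).

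Fam229b, the gene of little described function, had low signal in liver. The virgin lung pools read 5.82, 5.78 and 5.63 and the pregnant lung pools 5.25, 4.98 and 5.11. The virgin liver pools read 4.66, 4.37 and 4.43 and the pregnant liver pools 3.44, 3.84 and 3.49. The groups did not overlap, and of the 6 liver values pool 1 of virgin liver alone lay above the 4.6 level. The lung change was -0.63 ± 0.12 and left 64.7% of the virgin level. In liver it was -0.89 ± 0.12 and left 53.8%; pools 1 and 2 gave -0.87 and pool 3 -0.94. Its 1 relative with the same family name, Fam229a, differed by -0.08 ± 0.10 in lung (adjusted p = 0.911) and -0.32 ± 0.10 in liver (adjusted p = 0.0543). Fam229b had 1 probe set.

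**Figure D2:**
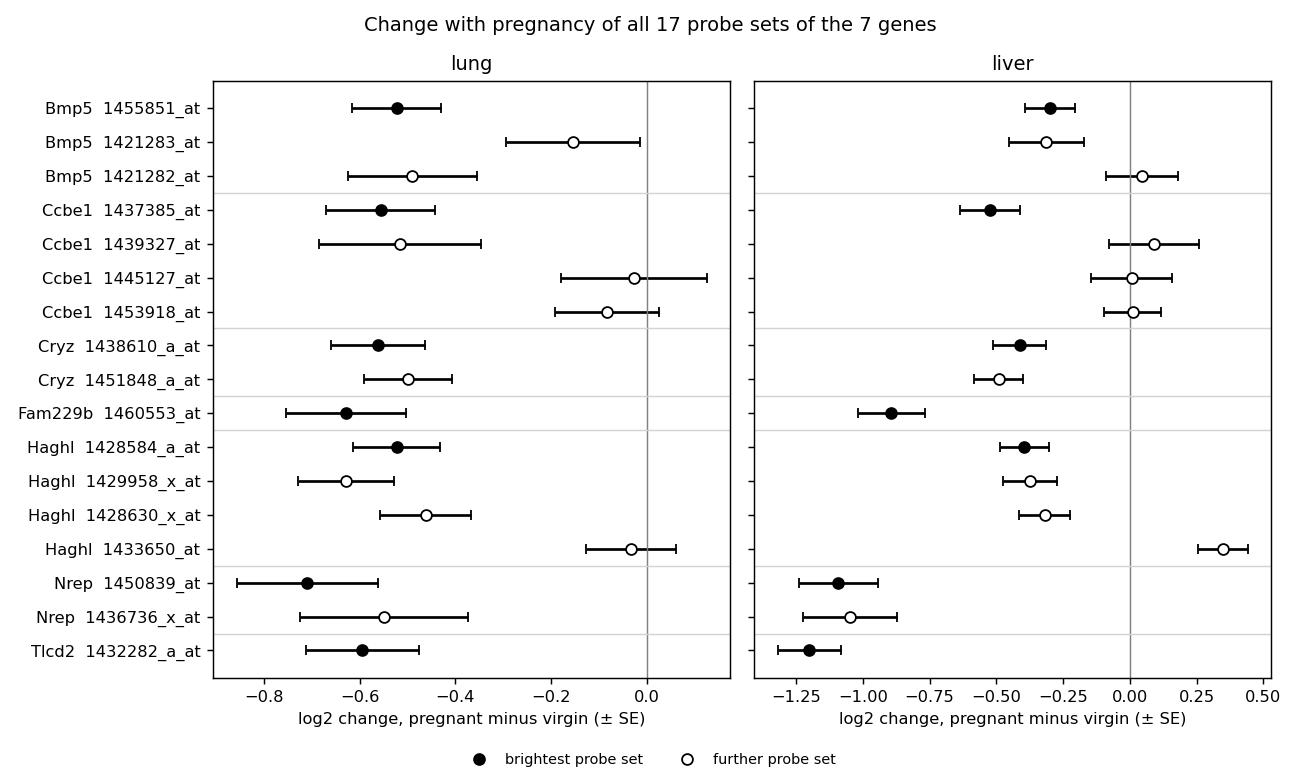
Log2 change with pregnancy (pregnant minus virgin, ± SE from a fit over all probe sets, 3 pools a group) of all 17 probe sets of the 7 genes, in lung (left) and liver (right). Filled points are the brightest probe set of a gene and open points the others; 13 probe sets in lung and 12 in liver have every pregnant array below every virgin array, and 1433650_at of Haghl lies above 0 in liver.

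Counted over probe sets, all 17 had a lower mean in pregnant than in virgin lung and 12 of 17 in liver. Without overlap, 13 of 17 were lower in lung and 12 in liver. The brightest probe sets among them were part of the choice of the genes. The shares over all probe sets were not counted, so nothing is read from the counts in this paragraph. Of the 10 further probe sets, which share their target gene with the brightest and are not replicates of it, 6 were lower without overlap in lung, 5 in liver and 4 in both. The 4 were those of Cryz (1451848_a_at), Haghl (1429958_x_at and 1428630_x_at) and Nrep (1436736_x_at).

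The difference between virgin lung and virgin liver was not itself used to choose the genes, and it was tested. It shares the virgin arrays and the estimate of spread with the contrasts that chose them. Its p-values are therefore not independent of that choice. All 7 genes differed between the tissues by limma, as did 68.7% of all genes tested. Bmp5 was 4.48-fold higher in lung (log2 difference 2.16 ± 0.086, adjusted p = 1.41e-11), with all 3 virgin lung pools above all 3 virgin liver pools. Ccbe1 was 1.71-fold higher in lung (0.77 ± 0.11, adjusted p = 1.97e-05), the smallest tissue difference of the 7, and the mean of its probe sets gave a log2 difference of 0.34, which also passed. Haghl was 1.82-fold higher in lung (0.86 ± 0.083, adjusted p = 3.61e-07). Its probe sets 1429958_x_at and 1428630_x_at were also higher in lung, by 1.04 and 0.96, but 1433650_at differed by -0.17 ± 0.094. Fam229b was 2.39-fold higher in lung (1.26 ± 0.12, adjusted p = 3.85e-07). Nrep was 2.90-fold higher in lung (1.53 ± 0.15, adjusted p = 3.21e-07). The other two genes were higher in liver. Cryz was 5.76-fold higher in liver (-2.53 ± 0.092 as lung minus liver, adjusted p = 5.27e-12). Tlcd2 was 8.63-fold higher in liver (-3.11 ± 0.11, adjusted p = 5.85e-12), the largest tissue difference of the 7. Virgin pools did not overlap between the tissues for any of the 7 genes. The share of all genes without such overlap was not counted, so nothing is read from it. The labels do not say whether lung and liver arrays of 1 pool number came from the same mice, and the fit took them as separate samples, here and for the lung change minus the liver change. Lung and liver arrays of 1 number deviated from their group means with correlations of -0.0369 to 0.106 across genes.

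The order of the 4 groups took 2 forms. In Bmp5, Ccbe1, Fam229b, Haghl and Nrep (5 of 7) it ran from virgin lung through pregnant lung and virgin liver to pregnant liver. In Cryz and Tlcd2 (2 of 7) it ran from virgin liver through pregnant liver and virgin lung to pregnant lung. No neighbours in either order overlapped in any of the 7 genes. Within a tissue this partly repeats the rule. The share of all genes with such an order was not counted, so nothing is read from it. The tissue with the higher virgin level had the larger log2 change in Bmp5, Ccbe1, Haghl and Tlcd2 and the smaller one in Cryz, Fam229b and Nrep. The lung change minus the liver change was -0.22 ± 0.12 for Bmp5, -0.15 ± 0.13 for Cryz and -0.13 ± 0.12 for Haghl. For Fam229b it was 0.26 ± 0.17 and for Nrep 0.38 ± 0.21, and these are given without a test because both changes chose the genes.

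**Figure D3:**
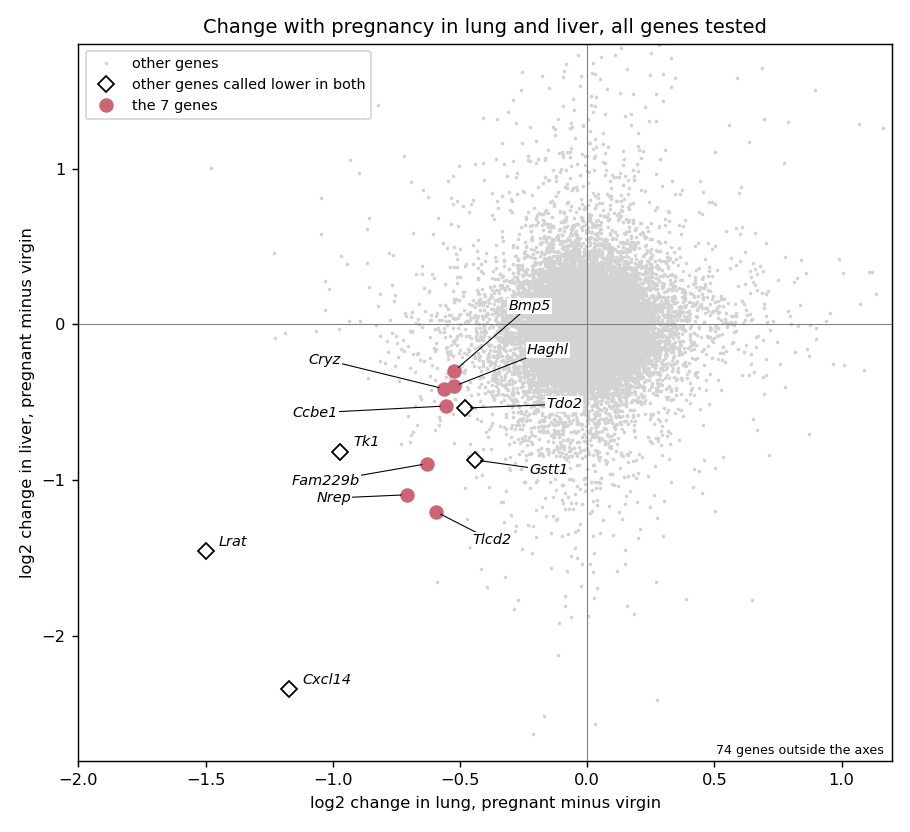
Log2 change with pregnancy in lung (horizontal axis) against liver (vertical axis) for the genes tested, with a few outside the axes as counted in the corner. The 7 genes (filled circles) lie between -0.52 and -0.71 in lung and between -0.30 and -1.20 in liver; open diamonds are the other 5 genes called lower in both tissues, and grey dots all other genes.

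Of the 12 genes called lower in both tissues, the 5 that were not among the 7 were Lrat, Cxcl14, Tk1, Gstt1 and Tdo2. By the larger of the 2 adjusted p-values from limma, those of the 12 nearest inside the threshold were Nrep (0.0486), Tdo2 (0.0469), Ccbe1 (0.0369), Gstt1 (0.0357) and Fam229b (0.0353). Just outside it stood Septin4 (0.0506), Srebf1 (0.0558), Slc36a2 (0.0562), Igf1 (0.0643) and Aldh1l1 (0.0667). Septin4, a septin cytoskeleton gene, differed by -0.42 in lung and -0.38 in liver. Srebf1, a regulator of lipid synthesis, differed by -0.47 and -1.25, and Slc36a2, an amino acid transporter, by -0.86 and -0.34. Igf1, the growth factor, differed by -0.61 and -0.42, and Aldh1l1, a folate enzyme, by -0.46 and -0.58. The lung contrast set the larger p for all 7 genes except Bmp5. The number of the 7 called in lung was 0 without lung pregnant replicate 1, 1 without lung pregnant replicate 2, lung virgin replicate 2 or lung virgin replicate 3, 4 without lung pregnant replicate 3 or lung virgin replicate 1, and 3 without liver virgin replicate 3. In liver it was 6 or 7 without any 1 array, and Bmp5 lost its liver call without any liver array but liver pregnant replicate 1, at an adjusted p of up to 0.101.

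**Figure D4:**
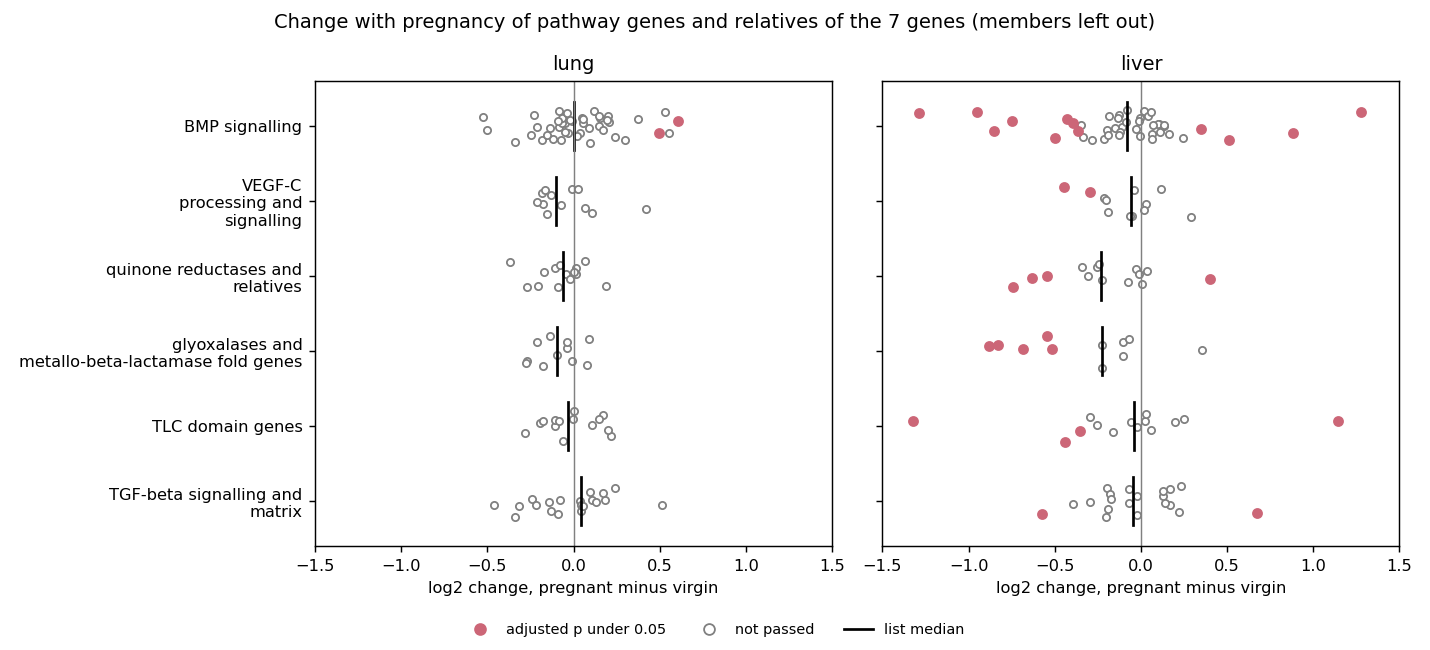
Log2 change with pregnancy (pregnant minus virgin) of 115 pathway genes and relatives of the 7 genes, which are left out, in lung (left) and liver (right). Each point is 1 gene, filled where limma's adjusted p was under 0.05, and the bar is the list's median; 2 genes are filled in lung and 29 in liver, 22 of them below 0.

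The change of 12 of the 115 pathway genes (10.4%) differed between lung and liver, where 6.71% of all genes did. All 22 pathway genes that fell in liver, and all 7 that rose, did so without overlap between virgin and pregnant pools. The same share over all genes called in liver was not counted, so nothing is read from it.

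Genes whose values ran most like those of the 7 were found by Pearson's r over the 12 arrays, after the mean of each tissue was taken off. This measure follows the virgin and pregnant groups, so it partly repeats the rule, and it is given as a description of r between 0.932 and 0.986. Bmp5 was nearest to Slc36a2 (r = 0.953), Haghl (0.947) and Pgm5 (0.936), and Ccbe1 to Bckdhb (0.955), Haghl (0.940) and Sh2d4a (0.932). Cryz was nearest to Nfib (0.957), Cibar1 (0.945) and Lrat (0.943), and Fam229b to Lrat (0.957), Dkc1 (0.954) and Cadm1 (0.953). Haghl was nearest to Ipo5 (0.963), Septin4 (0.954) and Bmp5 (0.947), and Nrep to Gbp3 (0.959), Abi3bp (0.95) and Cutal (0.946). Tlcd2 was nearest to Exoc7 (0.986), Ropn1l (0.980) and Nqo2 (0.977), the quinone reductase described with Cryz. Of the 19 different genes so named, 2 were among the 7, and all 19 had lower means in both pregnant groups.

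Marker genes of cell types that lung and liver hold were read beside these values. Of the 8 hepatic stellate cell markers, Lrat, the retinol esterifying enzyme, was lower in both tissues, from 9.49, 9.39 and 9.51 to 8.08, 7.88 and 7.93 in lung and from 8.46, 8.38 and 8.24 to 6.82, 7.11 and 6.79 in liver. Lrat was 1 of the 8 that passed in lung, where Colec11 and Hand2 were below the 4.6 level, and Lrat and Ecm1 (-0.64 ± 0.14) were the 2 that fell in liver. The mean level of this list was 6.68 to 6.70 in virgin and 6.49 to 6.55 in pregnant lung, and 7.61 to 7.71 in virgin and 7.30 to 7.40 in pregnant liver. The median change of its genes was 0.068 in lung and -0.11 in liver. Of 10 lung fibroblast markers, 0 passed in lung (mean level 9.07 to 9.24 in virgin, 8.96 to 9.05 in pregnant lung), and Tcf21 (-0.47 ± 0.10) and Col13a1 (-0.46 ± 0.11) fell in liver (6.66 to 6.78, then 6.54 to 6.69). The part of these cells in the lower levels of the 7 genes was not tested.

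For the other cell types 0 markers passed in lung. In liver 1 of 8 mesothelial markers fell (Gpm6a, -0.71 ± 0.17, where 4 of the 8 were below the 4.6 level in virgin liver and 5 in pregnant), with a list mean of 4.34 to 4.57 and then 4.18 to 4.47. Among 7 blood endothelial markers Vwf, von Willebrand factor, rose in liver from 5.39, 5.18 and 5.19 to 7.34, 7.79 and 8.07 and Kdr fell, and the list's mean level was 6.43 to 6.57 in virgin and 6.58 to 6.82 in pregnant liver. Of 10 hepatocyte markers Ahsg rose (0.37 ± 0.088), and the list averaged 13.4 to 13.5 in virgin and 13.5 to 13.6 in pregnant liver. Of 6 ciliated cell markers Rsph1 rose (1.595 ± 0.15) while the other five were below the 4.6 level, and the list averaged 3.80 to 3.88 and then 4.07 to 4.29. Of 5 pancreatic acinar markers, Cpa1 (0.39 ± 0.11) and Clps (0.70 ± 0.14) rose and Cela2a (-0.87 ± 0.20) fell, and Ctrb1 and Cel were below the 4.6 level (list mean 4.39 to 4.68, then 4.42 to 4.74). The lists for smooth muscle and pericytes, lymphatic endothelium, cholangiocytes, alveolar type 2 and club cells, and alveolar type 1 cells had 0 calls in liver as well. Their part in the values of the 7 genes was not tested.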

How the data were processed

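RNA of lung and liver, pooled from 2 mice per array, was labelled with biotin and hybridised to 12 one-colour Affymetrix mouse arrays. The authors deposited 1 log2 expression value per probe set and array, made with RMA and the affy package per the submitters' processing notes, which give no versions. RMA corrects background, normalizes between arrays and summarises the probes of a set, and it narrows the spread of low signals. Which arrays were normalized together, and any genome build, are not given in the sources used here. Control probe sets (64) did not enter, and of the 45037 others 34945 had 1 symbol in the platform annotation, 932 several and 9160 none; only those with 1 symbol were used, and the set with the highest mean stood for its gene.

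One model over all 4 groups was fitted with limma 3.58.1 in R 4.3.3 (8 residual degrees of freedom), with two-sided tests and Benjamini-Hochberg adjustment over 18193 genes at 0.05. The steps were tested on simulated data. The pathway and marker lists and the 7 genes were chosen with earlier results of these data known, so no count in a list is independent evidence, and list members without a probe set of their own were not analysed here. Genes named besides the 7 were, per list and contrast, up to 3 called genes of largest change or the 2 of smallest p, the 3 nearest by correlation, those at the threshold, close relatives and called markers. Smad7, Bmp2, Glo1, Vegfc, Adamts3, Cryzl2 and the 3 Tgfb genes were added after their values were seen. Alternatives changed the arrays fitted, low-signal filter, probe set rule, scaling, variance model, pool block, threshold and replicates.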

Additional observations from a re-analysis of the deposited data

Results flagged for a closer look

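The change with pregnancy differed between lung and liver in 12 pathway genes, all given here. The test was limma's, on the lung change minus the liver change. Marker genes differed too, and 5 of them are given. All values are log2, with the adjusted p of the difference. In the BMP list the difference was 0.586 for Eng (0.498 in lung, -0.0879 in liver, adjusted p = 0.0172) and 1.15 for Bmp6 (0.200 and -0.952, adjusted p = 0.00198). For Smad7 it was 1.39 (0.533 in lung, -0.853 in liver, adjusted p = 0.00115) and for Bmp2 0.582 (0.296 and -0.286, adjusted p = 0.0148). Blvrb, the biliverdin reductase, had a difference of 0.667 (-0.0766 in lung, -0.743 in liver, adjusted p = 0.00837). Of the metallo-beta-lactamase fold genes, Lactb2 differed by 0.564 (-0.268 and -0.831, adjusted p = 0.0219) and Ethe1 by 0.963 (0.0789 and -0.884, adjusted p = 0.0032). Glo1, a glyoxalase gene, differed by 0.506 (-0.0395 in lung, -0.546 in liver, adjusted p = 0.0467). Tlcd1, the relative of Tlcd2, differed by 1.04 (-0.283 in lung, -1.32 in liver, adjusted p = 0.000858). The ceramide synthase genes differed in opposite directions, Cers6 by -0.946 (0.198 and 1.14, adjusted p = 0.00179) and Cers2 by 0.547 (0.107 and -0.440, adjusted p = 0.0172). Tgfbr2 differed by -0.763 (-0.0920 in lung, 0.671 in liver, adjusted p = 0.00664).

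Among the markers, Vwf differed by -2.34 (0.140 in lung, 2.48 in liver, adjusted p = 1.33e-05) and Rsph1 by -1.62 (-0.0225 and 1.595, adjusted p = 0.000418). Ecm1 differed by 0.899 (0.263 and -0.636, adjusted p = 0.0142), Col13a1 by 0.606 (0.15 and -0.456, adjusted p = 0.0285) and Cela2a by 1.06 (0.192 and -0.869, adjusted p = 0.039).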

How the results depend on the processing

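No change of any of the 7 genes turned its direction under any alternative run, and all 7 differed between virgin lung and virgin liver in each that could give the value (each tissue fitted alone could not). The calls with pregnancy moved. Of the 7, the number called in lung was 4 with each tissue fitted alone, 4 without both liver pools 3, 1 with the pool number as a replicate block and 0 at an adjusted p under 0.01. In liver it was 4 with the mean of all probe sets. In both tissues it was 3 with each tissue alone, 3 with a gene's probe sets averaged, 3 without both liver pools 3, 1 with the replicate block and 0 at 0.01. The count of all genes called lower in both tissues, whose alternatives were chosen after seeing the data, was 12, and it was 5 with each tissue alone, 26 with a variance trend and robust moderation, 32 with array weights, 5 with the replicate block and 1 at 0.01. Pathway genes called in lung (2) numbered 1 with each tissue alone, 4 with the variance trend, 4 with array weights, 0 with the replicate block, 1 without both liver pools 3 and 0 at 0.01, and those in liver (29) numbered 19 with each tissue alone and 18 at 0.01. Leaving out 1 array gave 0 to 7 of the 7 in lung, 6 to 7 in liver and 0 to 7 in both, 2 to 14 of all genes in both, and 0 to 3 pathway genes in lung and 23 to 29 in liver. The replicate block ended the lung calls of Smad6 and Eng and the liver call of Kdr, and the fit of each tissue alone those of Eng, Nrp2, Kdr and Cryzl2. Leaving out both liver pools 3 ended the lung call of Smad6 and the liver calls of Hamp, Kdr and Cryzl2. The call of Kdr was also lost with either quantile normalization, with array weights and with probe sets ending in _s_at and _x_at left out. The variance trend ended the call of Hamp, and array weights and the variance trend brought Sox18 past the threshold in lung. The cause of these moves was not tested. Pools of 1 number in virgin and pregnant mice deviated from their group means with correlations of -0.00631, 0.0155 and 0.096 in lung. In liver these were 0.108, -0.11 and 0.0918. The 2 liver arrays of pool 3 also shared the near absence of poly-A control signal. Whether arrays of 1 number were handled together was not tested. Signal near background limits the values of Fam229b in liver and of 3 Ccbe1 probe sets.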
